A study of Homo sapiens with 6 samples.

Results

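The genes described here are the ZNF genes, the largest numbered series of zinc finger genes in human nomenclature, that carried enough ribosome footprints to be followed in K562 cells after loss of N6AMT1. Members were chosen by symbol (ZNF, a number and at most 1 further letter) and selected on their raw footprint counts, which had to reach 300 when summed over all 6 libraries. This left 57 of the 503 ZNF symbols among the 19330 genes of the table. The sum takes both groups together, so it fixed the level of a member and not the direction of its difference. Ribosome profiling (Ribo-Seq) sequences the mRNA stretches that ribosomes shield from nuclease, and the number of such footprints on a gene reflects both its mRNA amount and its translation. All cells were K562, a human chronic myelogenous leukemia line, infected with the lentiviral CRISPR/Cas9 vector pLentiCRISPRv2, selected with puromycin for 48 h and harvested on day 10 after infection. The 3 sgN6AMT1 libraries came from cells with guides against N6AMT1, and the 3 sgCtrl libraries from cells with guides against the olfactory receptor genes OR11A1 and OR2M49, as the labels spell them. Which guide each library received is not given in the sources used here, and the cells were infected populations. The study describes the replicates as separate lentiviral transductions.

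A classical (C2H2) zinc finger is a short fold in which a pair of cysteines and a pair of histidines hold 1 zinc ion, and arrays of such fingers read DNA, RNA or proteins. Many ZNF proteins also carry a KRAB domain, which recruits the co-repressor TRIM28 and, through it, the histone methyltransferase SETDB1 and heterochromatin proteins to silence transposons and other targets. Other ZNF proteins are unrelated in function and act at promoters, on RNA, at the spindle or on the ribosome itself. N6AMT1 methylates the release factor eRF1, the protein that recognises stop codons.

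The coding sequence of the first finger is shown for the 3 largest increases and the 3 largest decreases among the members past the threshold of the test below, and for ZNF207, the member with the most footprints, because these fingers are the feature that defines the series and the members below differ in how many they carry. A finger was called where the translated coding sequence (CDS) held cysteines with 2 to 4 residues between them, then 12 residues, a histidine, 3 to 5 residues and a closing histidine or cysteine, taking the closest pair of cysteines. Sequences run 5′ to 3′ on the coding strand (GENCODE transcripts, GRCh38), and capitals mark the codons of the cysteines and histidines of the pattern.
ZNF280A: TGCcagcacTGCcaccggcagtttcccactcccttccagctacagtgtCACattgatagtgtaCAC
ZNF175: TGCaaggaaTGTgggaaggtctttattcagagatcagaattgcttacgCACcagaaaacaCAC
ZNF384: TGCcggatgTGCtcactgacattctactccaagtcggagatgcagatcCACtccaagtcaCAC
ZNF385A: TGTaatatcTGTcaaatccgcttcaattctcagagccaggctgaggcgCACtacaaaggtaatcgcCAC
ZNF512: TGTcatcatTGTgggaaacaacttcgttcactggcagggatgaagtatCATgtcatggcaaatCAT
ZNF22: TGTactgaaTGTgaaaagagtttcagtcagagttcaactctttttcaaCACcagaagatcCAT
ZNF207: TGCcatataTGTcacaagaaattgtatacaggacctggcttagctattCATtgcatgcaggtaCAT

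The finger of ZNF280A lies at chr22:22514560-22514625 on the minus strand (coding exon, exon 2) and that of ZNF175 at chr19:51587340-51587402 on the plus strand (exon 5). The finger of ZNF384 lies at chr12:6673377-6673439 on the minus strand (exon 7), that of ZNF512 at chr2:27601368-27601433 on the plus strand (exon 7) and that of ZNF22 at chr10:45003537-45003599 on the plus strand (exon 2). The fingers of ZNF385A (chr12:54374100-54375876, minus strand) and ZNF207 (chr17:32351853-32358508, plus strand) are each joined from exons 3 and 4. The spacing between the histidines differs among them. It is 3 residues in ZNF175, ZNF384 and ZNF22, 4 residues in ZNF280A, ZNF512 and ZNF207, and 5 residues in ZNF385A. All 7 have 2 residues between their cysteines. By the same pattern ZNF175 carries 13 fingers, ZNF384 8, ZNF280A, ZNF512 and ZNF22 5 each, ZNF385A 3 and ZNF207 1.

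The libraries held between 1821356 and 2969736 footprint counts. The members took 0.300% to 0.309% of the counts of every library. N6AMT1 itself had 25, 24 and 34 counts with control guides and 10, 9 and 8 with guides against it, which goes with the labels (log2 fold change −1.51 ± 0.31 SE, adjusted p = 6.69e-05, edgeR). All 9 erythroid leukemia markers examined were measured. Their summed level of 25110 to 26470 CPM (counts scaled to the size of the library) in sgCtrl overlapped with 26040 to 26820 CPM in sgN6AMT1. Most of that sum came from the globins HBG1, HBG2 and HBE1 (means of 9553, 9920 and 3567 CPM in sgCtrl). Of the 9 markers, 2 were higher (HBE1, TAL1) and 4 lower (GATA1, LMO2, KLF1, TFRC). LMO2 changed most, from a mean of 41.1 CPM in sgCtrl to 15.3 CPM in sgN6AMT1. Of 8 markers of other cell types 7 were in the table and 0 were at 0 in every library. They summed to 172 to 202 CPM in sgCtrl and 186 to 210 CPM in sgN6AMT1, nearly all of it EPCAM. The part of these marker differences in the results for ZNF genes was not tested.

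All 57 members passed the filter on low counts, and 11 differed between the groups in edgeR's quasi-likelihood test at an adjusted p under 0.05, 5 higher and 6 lower in sgN6AMT1. The share called was 19.3% of the members, against 26.9% of all 9202 genes tested and 33.3% of those with at least 300 counts. The higher share of all genes was 12.9% and the lower share 13.9%. The members' median log2 fold change was −0.05, against 0.01 over all genes tested and −0.02 over those with at least 300 counts. There were 32 members below 0 and 25 above it, and their values ran from −0.62 to 0.74. The number of counts matters for what can be called. Among members of at least 300 and under 1000 counts, 7 of 47 were called (14.9%) against 24.2% of all genes in that range, and among members of at least 1000 counts 4 of 10 (40.0%) against 44.1%. The CPM of the 3 sgCtrl and the 3 sgN6AMT1 libraries did not overlap for 22 members (38.6%). The same held for 37.5% of all genes tested and 43.4% of those with at least 300 counts.

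**Figure D1:**
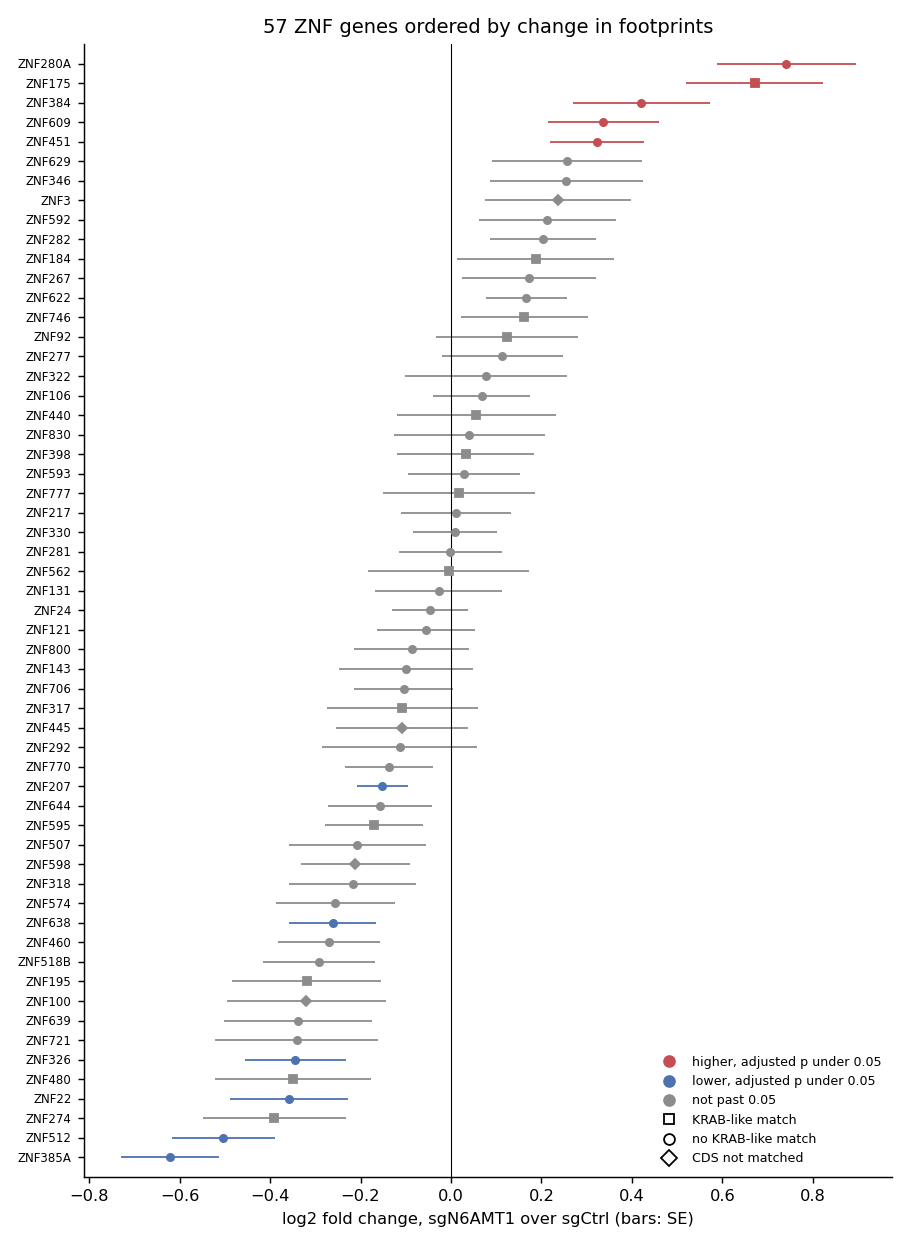
Log2 fold change in footprints (x axis, sgN6AMT1 over sgCtrl) of each of the 57 ZNF members (y axis, ordered by value), with bars for 1 SE. Red and blue mark the 5 higher and 6 lower members at an adjusted p under 0.05 in edgeR, squares a KRAB-like match and diamonds the 4 genes without a matched CDS; the values run from −0.62 (ZNF385A) to 0.74 (ZNF280A).

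DESeq2, the tool named in the study's methods, called 4 of the 57 members (2 higher, 2 lower) against 12.3% of the 10780 genes it tested, and all 4 were also called by edgeR. With library totals in place of trimmed-mean (TMM) factors the split was 5 higher and 3 lower, and the members' median log2 fold change turned to 0.01, against 0.06 over all genes. The count of members called also changed when single libraries were left out: it was 5 without the second sgCtrl library, 6 without the second sgN6AMT1 library and 7 without the third. The share called over all genes in these fits was 20.9%, 20.0% and 24.9%, against 26.9% with every library.

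The cloud of all genes tested, plotted against level, shows where the members sit.

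**Figure D2:**
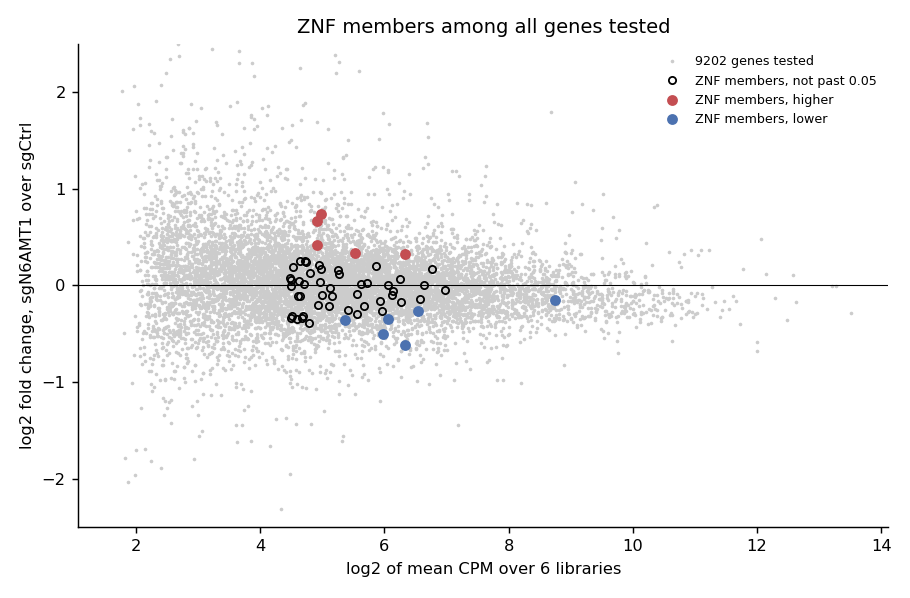
Log2 fold change (y axis, sgN6AMT1 over sgCtrl) against log2 of the mean CPM over the 6 libraries (x axis) for 9202 genes tested (grey), with the ZNF members circled. The 5 higher members are filled red and the 6 lower ones blue, and all members lie between −0.62 and 0.74. A few grey points lie beyond the y axis.

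ZNF280A, whose protein is related to the Drosophila insulator factor suppressor of Hairy wing, rose most. The sgCtrl libraries gave 49, 56 and 58 counts, and the sgN6AMT1 libraries 91, 104 and 60. Scaled to depth these were 24.2 ± 4.66 and 39.1 ± 6.21 CPM (SD, n = 3 each), with no overlap, the third sgN6AMT1 library being the lowest of its group. The log2 fold change was 0.74 ± 0.15 (SE), or 1.67-fold (adjusted p = 7.03e-05, edgeR). The gene (chr22:22513736-22520270, GRCh38) shares 14.8% of the 26-base words of its CDS with other genes, mainly its neighbour in sequence ZNF280B, so the assignment of its reads is uncertain to that degree.

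ZNF175, also known as OTK18, is a KRAB zinc finger protein (chr19:51571283-51592510). It was counted 52, 65 and 44 times in sgCtrl, against 85, 85 and 69 times in sgN6AMT1. The groups lay far apart relative to their spread, at 23.4 ± 2.38 and 37.2 ± 0.38 CPM (SD, n = 3 each), a 1.59-fold rise (log2 fold change 0.67 ± 0.15 SE, adjusted p = 0.000263, edgeR).

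ZNF384, a promoter-binding factor known as a fusion partner in acute lymphoblastic leukemia, had sgCtrl counts of 54, 69 and 54 and sgN6AMT1 counts of 74, 85 and 62 (chr12:6666730-6689292). The lowest sgN6AMT1 library stood at 32.4 CPM and the highest sgCtrl library at 27.1 CPM. The rise was 1.34-fold (log2 fold change 0.42 ± 0.15 SE, adjusted p = 0.0278, edgeR). The call was lost without the second sgCtrl library (adjusted p = 0.153) and without the second sgN6AMT1 library (adjusted p = 0.139, edgeR), and with DESeq2 (adjusted p = 0.255).

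ZNF609, a partner of the cohesin loader NIPBL, had nearly equal sgCtrl levels of 40.2, 40.7 and 40.9 CPM and sgN6AMT1 levels of 51.7, 47.1 and 55.9 CPM (chr15:64460578-64686068). It was 1.26-fold higher (log2 fold change 0.34 ± 0.12 SE, adjusted p = 0.0314, edgeR). That call did not survive leaving out any 1 of the 3 sgCtrl libraries or of the first or the third sgN6AMT1 library (adjusted p between 0.0624 and 0.126, edgeR), nor removing the filter on low counts (adjusted p = 0.0532), nor DESeq2 (adjusted p = 0.251).

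ZNF451, a SUMO ligase, had sgCtrl counts of 142, 225 and 131, and in sgN6AMT1 reached 199, 221 and 158 (chr6:57090188-57170305). In CPM these were 71.3, 77.6 and 64.6 against 87.2, 95.5 and 85.8, again with no overlap. The log2 fold change was 0.32 ± 0.10 (SE), or 1.25-fold (adjusted p = 0.0131, edgeR). The call was lost without the third sgCtrl library (adjusted p = 0.0863), without the second sgN6AMT1 library (adjusted p = 0.0984, edgeR) and with DESeq2 (adjusted p = 0.122).

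**Figure D3:**
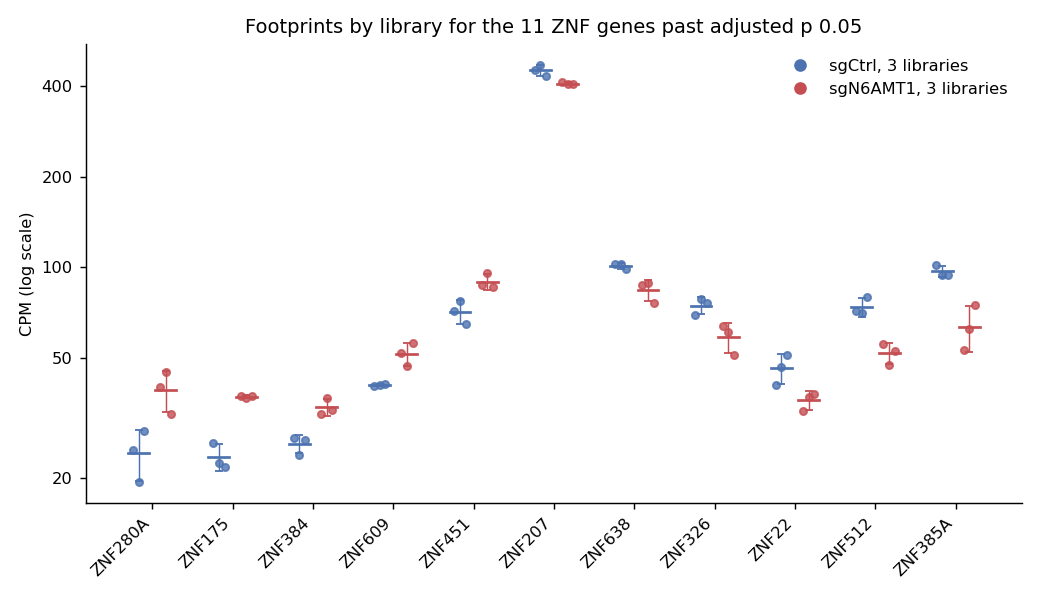
Footprint level (y axis, CPM, log scale) of the 11 members past the threshold in each library, sgCtrl in blue and sgN6AMT1 in red, with the mean as a line and the SD as bars (n = 3 each). For each of the 11 genes every library of the higher group lies above every library of the other group, from 24.2 against 39.1 CPM on average for ZNF280A to 453 against 408 CPM for ZNF207.

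ZNF385A, an RNA-binding protein that is also a cofactor of p53, fell most among the members (chr12:54369140-54391298). From 203, 273 and 192 counts in sgCtrl it went to 121, 144 and 138 counts in sgN6AMT1. Levels were 96.9 ± 4.39 CPM in sgCtrl and 63.4 ± 11.0 CPM in sgN6AMT1 (SD, n = 3 each), where the libraries spread widely, up to 74.9 CPM, without reaching the sgCtrl values. The log2 fold change was −0.62 ± 0.11 (SE), 1.54-fold lower (adjusted p = 2.08e-06, edgeR).

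ZNF512 went from 142, 204 and 162 counts in sgCtrl to 127, 110 and 97 counts in sgN6AMT1 (chr2:27583042-27623217). All 3 sgN6AMT1 libraries, at 55.7, 47.5 and 52.7 CPM, lay below the sgCtrl libraries at 71.3, 70.3 and 79.9 CPM. It fell 1.42-fold (log2 fold change −0.50 ± 0.11 SE, adjusted p = 0.000291, edgeR). ZNF280A, ZNF175, ZNF385A and ZNF512 stayed past the threshold under all 15 alternative fits, among them DESeq2, other scalings and the omission of each library in turn, and they were the only members among those named here that did.

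ZNF22, a small protein of 5 fingers, had 40.7, 46.5 and 51.3 CPM in sgCtrl and 33.3, 37.2 and 38.0 CPM in sgN6AMT1 (chr10:45000923-45005326). The gap between the groups was narrow. The log2 fold change was −0.36 ± 0.13 (SE), with an adjusted p of 0.0307 (edgeR), which rose to between 0.0631 and 0.135 without the second or the third sgCtrl library or the first or the second sgN6AMT1 library, to 0.0735 with library totals and to 0.231 with DESeq2.

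Among the 7 members listed for work on RNA or the spindle, 4 fell and 0 rose, while 13.9% of all genes tested fell and 26.9% were called. The list is deep, with a median of 1022 counts. Of the 2675 genes of at least 1000 counts 44.1% were called, and 768 of the 2675 fell. This list and the gene lists below were chosen with earlier results of these data known, so their counts are descriptions only. Besides ZNF385A, the members of the list that fell were ZNF326, ZNF638 and ZNF207. ZNF326 belongs to the DBIRD complex, which links RNA polymerase II to splicing, and had 69.3, 78.6 and 75.9 CPM in sgCtrl against 64.0, 60.9 and 51.0 CPM in sgN6AMT1 (chr1:89995110-90035533). Its log2 fold change was −0.34 ± 0.11 (SE, adjusted p = 0.0139, edgeR). The call was lost without the second sgCtrl library (adjusted p = 0.0845), without the third sgN6AMT1 library (adjusted p = 0.0882) and with DESeq2 (adjusted p = 0.112).

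ZNF638, a nuclear nucleic acid-binding protein, stood at 103, 102 and 98.6 CPM in sgCtrl and at 87.7, 88.6 and 76.0 CPM in sgN6AMT1 (chr2:71331764-71435061). The groups did not overlap, and the log2 fold change was −0.26 ± 0.10 (SE, adjusted p = 0.0331, edgeR). The sgCtrl libraries agreed closely, and the third sgN6AMT1 library was the lowest. The difference shrank to −0.10 (adjusted p = 0.471) once smooth trends of level on CDS length and GC content were removed in each library. The call was also lost in other fits. Without the first or the second sgCtrl library or the second or the third sgN6AMT1 library the log2 fold change was −0.20 to −0.30 (adjusted p between 0.0505 and 0.154, edgeR), with library totals −0.21 (adjusted p = 0.103), with genes of a mean of at least 50 counts only −0.24 (adjusted p = 0.0524) and with DESeq2 −0.27 (adjusted p = 0.166).

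ZNF207 (BuGZ), a spindle protein that binds the checkpoint protein BUB3, was the deepest member and the smallest of the called differences (chr17:32350175-32369860). The sgCtrl counts were 905, 1364 and 879, and the sgN6AMT1 counts 941, 941 and 747. Raw counts overlapped. Scaled to depth, they gave 455, 470 and 433 CPM against 413, 407 and 406 CPM, all sgN6AMT1 libraries below all sgCtrl libraries. The log2 fold change was −0.15 ± 0.06 (SE, adjusted p = 0.032, edgeR), a 1.11-fold fall. With library totals it was −0.10 (adjusted p = 0.197), and leaving out the first or the second sgCtrl library or the second or the third sgN6AMT1 library gave −0.12 to −0.15 with adjusted p between 0.0546 and 0.163 (edgeR), so the size of the difference moved with the scaling and its call with single libraries. Its adjusted p was 0.0552 with upper-quartile factors, 0.0699 with genes of a mean of at least 50 counts only and 0.0945 with DESeq2.

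The other 3 RNA or spindle members did not pass. ZNF346 (JAZ), which binds double-stranded RNA, had a log2 fold change of 0.25 ± 0.17 (SE), ZNF106 0.07 ± 0.11 and ZNF830 0.04 ± 0.17. The median over the list of 7 was −0.15, against 0.01 over all genes tested and −0.05 over those with at least 1000 counts.

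Of the 6 members listed as partners of chromatin complexes, 2 rose, the SUMO ligase ZNF451 and ZNF609 described above, and 0 fell, where 12.9% of all genes tested rose. ZNF518B was the closest of the others to the threshold, at −0.29 ± 0.12 (SE, adjusted p = 0.07, edgeR). Its levels of 43.2, 57.6 and 53.7 CPM in sgCtrl and 41.2, 41.5 and 45.6 CPM in sgN6AMT1 overlapped through the first sgCtrl library. Without that library the log2 fold change was −0.39 and the adjusted p 0.0198 (edgeR). ZNF592, a partner of the chromatin reader ZMYND8, had 0.21 ± 0.15, and ZNF644, which binds the methyltransferases G9a and GLP, −0.16 ± 0.11. ZNF217, a component of CoREST-type repressor complexes, lay at 0.01 ± 0.12, and its value turned to −0.03 without the second sgCtrl library and to −0.07 without the third sgN6AMT1 library.

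Of the 3 promoter factors, ZNF384 rose, where 12.9% of all genes tested rose. The others did not differ beyond their error. ZNF143, which binds many promoters, had a log2 fold change of −0.10 ± 0.15 (SE). ZNF281 was at 0.00 ± 0.11, with sgCtrl libraries between 57.3 and 76.5 CPM and sgN6AMT1 libraries between 61.8 and 76.0 CPM, so its direction was not settled, and 9 of 15 alternative fits gave it the opposite sign.

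The members that act on the ribosome are of direct interest in a ribosome profiling experiment. Of these 3, 0 passed the threshold, where 26.9% of all genes tested and 33.3% of those with at least 300 counts did. ZNF598 is the ubiquitin ligase that senses collided ribosomes. Its 119, 155 and 103 sgCtrl counts and 111, 103 and 89 sgN6AMT1 counts made 54.7 ± 4.62 and 47.2 ± 2.31 CPM (SD, n = 3 each). The groups did not overlap in CPM, but the log2 fold change of −0.21 ± 0.12 (SE) had an adjusted p of 0.194 (edgeR). ZNF622, a maturation factor of the large ribosomal subunit, lay on the other side, with 101, 101 and 106 CPM in sgCtrl and 120, 110 and 115 CPM in sgN6AMT1. Its log2 fold change was 0.17 ± 0.09 (SE, adjusted p = 0.165, edgeR), also without overlap. ZNF593, another factor of large subunit maturation, did not differ beyond its error (0.03 ± 0.12, SE), and its value was −0.02 once trends on CDS length and GC content were removed.

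The KRAB family is the largest branch of the series, and 13 of the 53 members with a known CDS held a KRAB-like stretch: ZNF175, ZNF184, ZNF195, ZNF274, ZNF317, ZNF398, ZNF440, ZNF480, ZNF562, ZNF595, ZNF746, ZNF777 and ZNF92. Of these, 1 rose (ZNF175) and 0 fell (7.69% called), and their median log2 fold change was 0.02. Among the 40 members whose CDS held no such stretch, 4 rose and 6 fell (25.0% called, against 26.9% of all genes), with a median of −0.05. The 13 were shallower, with a median total of 349 counts against 639, and only ZNF595 among them exceeded 1000 counts. The difference between members with and without the stretch was not tested. Lack of a match does not show that a protein lacks a KRAB domain. The direction of the KRAB-like median was not settled: it was −0.10 without the third sgCtrl library, −0.04 without the first or the third sgN6AMT1 library, and up to 0.10 without the first sgCtrl library.

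ZNF274, a KRAB protein known to bind the ends of zinc finger genes, missed the threshold closely. It was counted 63, 93 and 60 times in sgCtrl, against 57, 49 and 47 times in sgN6AMT1. In CPM the groups, at 31.1 ± 1.33 and 23.9 ± 2.37 (SD, n = 3 each), did not overlap. The log2 fold change was −0.39 ± 0.16 (SE, adjusted p = 0.0553, edgeR), and the adjusted p was 0.0431 once trends on CDS length and GC content were removed. ZNF445, a KRAB protein that protects imprints, had a log2 fold change of −0.11 ± 0.15 (SE), with the third sgN6AMT1 library at 45.1 CPM far above the other two at 28.5 and 29.8 CPM. Without the first sgN6AMT1 library its value was 0.01.

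The machinery that KRAB proteins recruit was measured through a list of TRIM28, SETDB1, heterochromatin proteins, deacetylases and methyltransferases. Of its 21 genes, 1 rose and 4 fell (23.8% called), against 26.9% of all genes tested and 44.1% of those with at least 1000 counts, the list's own median being 1108 counts. The median log2 fold change of the list was −0.12, that of all genes tested 0.01 and that of all genes with at least 1000 counts −0.05. The scaffold TRIM28 went from 2389, 3267 and 2296 sgCtrl counts to 2219, 2412 and 2007 sgN6AMT1 counts, a log2 difference of −0.16 ± 0.05 (SE, adjusted p = 0.00855, edgeR). The maintenance methyltransferase DNMT1 (−0.32 ± 0.06), its recruiter UHRF1 (−0.29 ± 0.08) and the deacetylase HDAC2 (−0.28 ± 0.06) fell as well, with adjusted p of 2.39e-05, 0.00327 and 0.000132 (log2 fold change ± SE, edgeR). SETDB1 stayed at 67.8 ± 3.99 and 66.8 ± 3.34 CPM (SD, n = 3 each; log2 fold change −0.02 ± 0.11 SE). Its binding partner ATF7IP rose (0.30 ± 0.12 SE, adjusted p = 0.0424, edgeR), a call lost with DESeq2, without a filter on low counts and without any 1 of the 3 sgCtrl libraries or the second sgN6AMT1 library. Without the first sgCtrl library 3 of the 21 genes passed.

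The members differed widely in sequence. Their CDS ran from 231 to 8172 bases, with a median of 1917 against 1395 over the genes tested. GC content ran from 36.1% to 65.3%, with a median of 44.9% against 50.9%. The number of fingers by the pattern ran from 0 in ZNF330 to 23 in ZNF721, with a median of 7. Over the 53 members with a known CDS, Spearman's rho of the log2 fold change was 0.06 with CDS length, 0.21 with GC content, 0.27 with GC at the last position of codons and 0.03 with the number of fingers. With mean CPM it was −0.12 over all 57. Over 8607 genes tested with a known CDS, rho was −0.13 with CDS length, 0.09 with GC content and 0.11 with GC at the last position. These are descriptions across genes, which are not independent replicates and share their libraries, and no p is given.

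**Figure D4:**
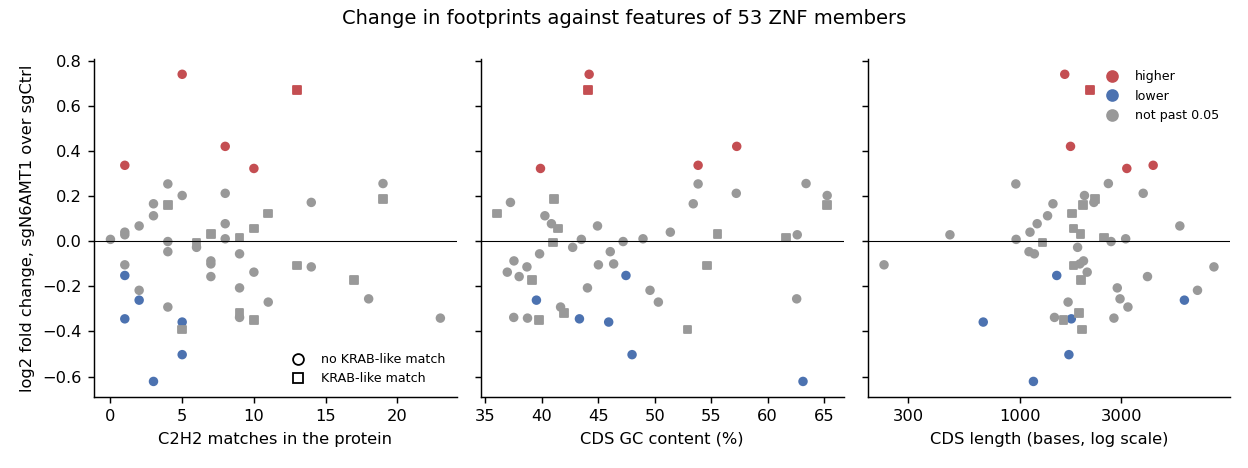
Log2 fold change (y axis, sgN6AMT1 over sgCtrl) of the 53 members with a known CDS against the number of C2H2 matches, CDS GC content (%) and CDS length (bases, log scale). Squares have a KRAB-like match, and red and blue mark members past the threshold. The higher members had 1 to 13 C2H2 matches and the lower ones 1 to 5, on an axis that reaches 23. In GC content and CDS length the higher and lower members overlapped. Spearman's rho was 0.03, 0.21 and 0.06.

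Members with many fingers and members with few were both called. Of the 35 members with at least 5 fingers, 4 rose and 2 fell (17.1% called), and of the 18 with fewer, 1 rose and 4 fell (27.8%), beside 26.9% of all genes tested. The groups differ in depth, with median totals of 413 and 900 counts. The linker TGEKP, the conserved bridge between fingers of the DNA-reading arrays, was present in 20 members, of which 1 rose and 1 fell (10.0% called, median total 388 counts), and absent from 33, of which 4 rose and 5 fell (27.3%, median total 636 counts). The part of depth in these counts was not tested.

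Because N6AMT1 modifies the factor that reads stop codons, the members were also grouped by stop codon. Of the 26 that end in TGA, 3 rose and 3 fell, and their median log2 fold change was 0.01, against 0.01 over all genes with that stop codon. Of the 17 that end in TAA, 1 rose and 2 fell (median −0.10, against −0.01 over all such genes). Of the 10 that end in TAG, 1 rose and 1 fell (median −0.07, against 0.03). Of all genes with these stop codons 24.7%, 29.5% and 27.5% were called. The difference between the stop codons was not tested.

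The members lie on 18 chromosomes. Chromosome 19, which holds the largest clusters of KRAB zinc finger genes, carries 11 of them, of which 1 rose (ZNF175) and 0 fell. That is 9.09% called, against 24.1% of all genes tested on that chromosome. Their median log2 fold change was −0.21, while that of all 655 genes tested on that chromosome was 0.00 and that of the 46 members elsewhere 0.00. The 8 members on chromosome 7 had a median of 0.12, and 0 of them passed, where 26.9% of all genes tested did. Member genes of 1 chromosome were few, so these medians are descriptions only.

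Levels were compared between members per kilobase of CDS. ZNF706, whose CDS of 231 bases was the shortest, was highest at 302 CPM per kilobase, followed by ZNF207 at 288. The per-library values of this pair overlapped, so their order was not settled. ZNF24 came next at 114 CPM per kilobase. The lowest were ZNF721 at 8.12, ZNF318 at 5.05 and ZNF292 at 2.99 CPM per kilobase. None of ZNF706 (log2 fold change −0.10 ± 0.11 SE), ZNF24 (−0.05 ± 0.08), ZNF721 (−0.34 ± 0.18), ZNF318 (−0.22 ± 0.14) and ZNF292 (−0.11 ± 0.17) passed the threshold. With library totals the value of ZNF24 turned to 0.01, and with trends on CDS length and GC content removed that of ZNF292 turned to 0.08.

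**Figure D5:**
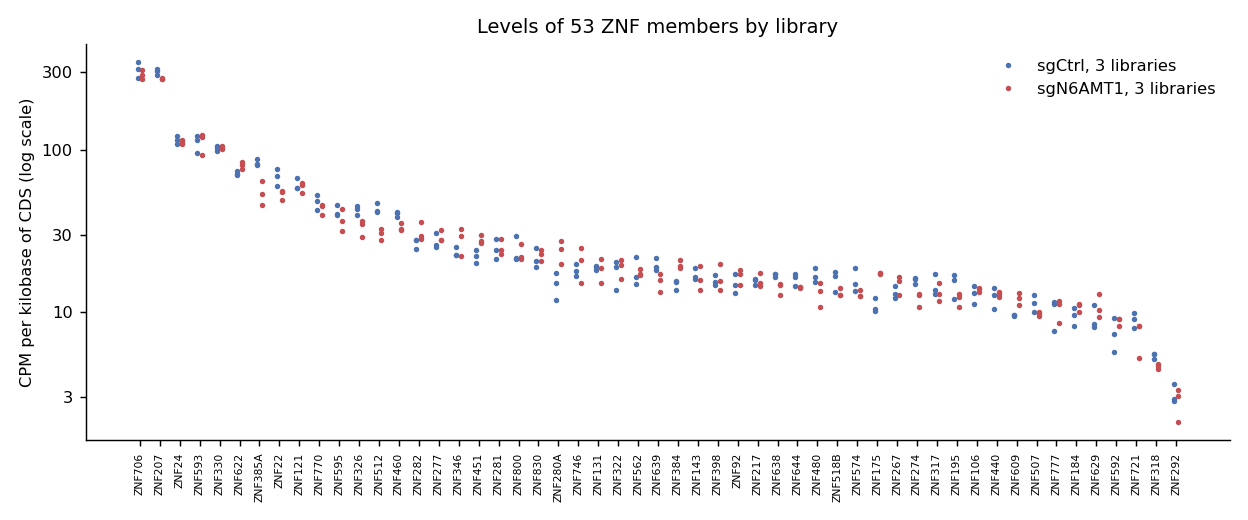
Footprint level per kilobase of CDS (y axis, CPM per kilobase, log scale) of the 53 members with a known CDS (x axis, ordered by mean level) in each of the 3 sgCtrl (blue) and 3 sgN6AMT1 (red) libraries. Levels run from about 3 for ZNF292 to about 300 for ZNF207 and ZNF706, a range far wider than that between the libraries of any 1 gene.

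The summed level of all members was 3072, 3160 and 3076 CPM in sgCtrl and 2960, 2959 and 2981 CPM in sgN6AMT1. These did not overlap on the TMM scale. On raw library totals the shares, 0.301%, 0.309% and 0.300% against 0.300%, 0.301% and 0.302%, did overlap. ZNF207 alone made up 13.6% to 14.9% of the members' counts.

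Fingers built from a common repeat can share sequence, which bears on how footprints are assigned. More than 10% of the 26-base words of the CDS occurred in another gene's CDS for 7 members. These were ZNF440 (39.0%), ZNF92 (27.7%), ZNF595 (27.4%), ZNF562 (25.5%), ZNF721 (16.2%), ZNF280A (14.8%) and ZNF480 (12.4%). Of them ZNF280A rose and 0 fell, and their values are uncertain to that degree. Among the 46 members below that share, 10 were called (21.7%), 4 higher and 6 lower. Of all genes tested 26.9% were called, and of those with at least 300 counts 33.3%.

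The count threshold cut through a continuum of genes. Just inside it, ZNF322 and ZNF562 had 301 counts each, and ZNF440 and ZNF721 303 each. Just outside, ZNF687 had 299, ZNF473 295 and ZNF551 285 counts. The remaining 446 ZNF genes were below 300 counts, and 212 of them passed the filter on low counts and were tested. Of these 2 rose and 10 fell (5.66% called), against 26.9% called of all genes tested and 33.3% of all genes with at least 300 counts. Their median log2 fold change was −0.05, close to that of the members. Both shares take in deeper genes. The 5874 genes with at least 300 counts held 1954 of the 2473 genes called (825 of 1191 higher, 1129 of 1282 lower). All genes tested under 300 counts were therefore called less often than either share, and more of them were higher than lower. The part of depth in the count of these ZNF genes was not tested.

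Other numbered series of zinc finger genes were small. Of 27 ZBTB genes tested, which join fingers to a BTB domain, 1 rose and 1 fell. Of 9 ZSCAN genes 1 rose, of 6 ZKSCAN genes 2 rose and of 7 ZFP genes 0 rose or fell. Among 13 KLF and SP genes, the family that binds GC-rich promoter elements, 3 rose and 2 fell. Of all genes tested 12.9% rose and 13.9% fell, and in series of this size a single gene moves the share widely. Differences between the series were not tested.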

How the data were processed

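Ribo-Seq footprints came from 6 K562 libraries, 3 per group, with 1821356 to 2969736 counts each. The values are whole-number counts per gene, deposited by the authors as 1 table and neither normalized nor pooled. The authors trimmed reads with cutadapt, mapped them to GRCh38 (Ensembl release 84) with HISAT2, removed rRNA and tRNA reads, mapped the rest to canonical transcripts with bowtie2 and placed P-sites with riboWaltz. They also counted reads against gene models, and the sources do not say which kind was deposited. The protocol names no molecular identifiers. Between libraries of the same group, chi-square per degree of freedom was 1.249 to 1.677 over the genes compared and 0.98 to 1.375 over the members. Counting error alone gives about 1. RNA-Seq libraries were not analysed here, so changes in mRNA and in translation cannot be told apart.

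The whole table was fitted in R 4.3.3 with edgeR 4.0.16: filterByExpr (minimum 10 counts), TMM factors, the robust quasi-likelihood F test (2-sided) and Benjamini-Hochberg adjustment over 9202 genes, threshold 0.05. CPM use TMM-adjusted totals. Log2 fold changes are sgN6AMT1 over sgCtrl. The fit was tested on simulated data whose differences were larger than that of any member, so the test did not cover differences of this size. Alternatives were DESeq2 1.42.0, limma-voom (limma 3.58.1), other factors and filters, trend removal (loess, span 0.5), the replicate number as a block, each library left out, and other count minimums for members. A restriction to members with little shared sequence was chosen after seeing the data.

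Of the members, 53 matched a CDS in GENCODE 44 by transcript, and ZNF100, ZNF3, ZNF445 and ZNF598 were placed by symbol. Fingers, KRAB-like stretches and linkers were matched in the translated CDS by text pattern, since no protein table was used. A pattern match is not a domain call, and the lack of one says only that these letters were not found. Genes were named if past the threshold without overlap between groups, if in a role list, or for the highest and lowest levels per kilobase. The members and lists were chosen with earlier results of these data known.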

Additional observations from a re-analysis of the deposited data

How the results depend on the processing

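DESeq2 called 4 members (2 higher, 2 lower), 3 of them without a KRAB-like stretch (1 higher, 2 lower), and 0 co-repressor genes as higher. Library totals gave 3 members lower, all without a KRAB-like stretch, and turned the members' median log2 fold change to 0.0086, with 0.072 for KRAB-like members and 0.0038 for the others. Genes of a mean of at least 50 counts gave medians of −0.0207, 0.0428 and −0.0253. Removal of trends on CDS length and GC content gave −0.0027 for all members and −0.004 without KRAB-like ones, with 2 KRAB-like members called, 1 of them lower. Without a filter on low counts 0 co-repressor genes were higher. At a minimum of 200 counts the median over 102 members was −0.0264 with 12 called (11.8%). At 500 counts that over 28 members was −0.0958 with 8 called (28.6%), 2 of them higher. In the main fit 26.9% of all genes tested were called, and the share over all genes at these minimums was not computed. The cause of these shifts was not tested.

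Leaving out 1 library at a time gave 5 to 9 members called (3 to 4 higher, 2 to 5 lower) with medians from −0.0806 to −0.0169, KRAB-like medians from −0.097 to 0.0956, 4 to 8 members called without a KRAB-like stretch (2 to 3 higher, 2 to 5 lower; medians from −0.0937 to −0.0169) and 3 to 6 co-repressor genes called (0 to 1 higher, 3 to 5 lower). The share called over all genes in these fits was 20.0% to 24.9%.

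Same-numbered libraries of the groups did not deviate together (correlations of −0.0612, 0.0198 and 0.0162 over 9202 genes). Differently numbered libraries gave −0.0797 to 0.0643. These values do not show whether same-numbered libraries were prepared in parallel. With the replicate number as a block, 10 members were called (5 higher, 5 lower), the median was −0.0439 and 2390 of all genes were called against 2473. ZNF207 lost its call (adjusted p = 0.0608, edgeR), and no other named member changed its call.

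Direction reversed only for named members near 0 that passed in neither fit. ZNF281 was at 0.0021 with DESeq2, 0.0118 with upper-quartile factors, 0.0536 with library totals, 0.0248 at a mean of at least 50 counts, 0.0109 with the replicate block and 0.0645 with trends removed. ZNF24 was at 0.0086 with library totals, and with trends removed ZNF292 was at 0.0773, ZNF593 at −0.0206 and ZNF830 at −0.0027. Over the omission of each library in turn, values ran for ZNF106 between −0.0236 and 0.1679, ZNF143 between −0.227 and 0.0092, ZNF217 between −0.0657 and 0.0635, ZNF24 between −0.0854 and 0.0007, ZNF281 between −0.0941 and 0.1292, ZNF292 between −0.2457 and 0.0312, ZNF445 between −0.3246 and 0.0092, ZNF593 between −0.0875 and 0.1523 and ZNF830 between −0.0437 and 0.1817.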
